A study of Mus musculus with 2 samples.

Results

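Nuclear genes of oxidative phosphorylation were taken as all rows of the count matrices whose symbol starts with Nduf, Uqcr, Atp5, Cox4, Cox5, Cox6, Cox7 or Cox8, or is Sdha, Sdhb, Sdhc or Sdhd. This rule found 96 of 31253 rows. Of these, 37 belong to complex I (NADH dehydrogenase), 4 to complex II (succinate dehydrogenase), 8 to complex III (ubiquinol-cytochrome c reductase), 21 to complex IV (cytochrome c oxidase, with Ndufa4 and its paralogue counted here) and 18 to complex V (ATP synthase). The remaining 8 are Ndufaf genes, which encode factors that assemble complex I. In all cells together 90 of the 96 rows had at least 100 unique molecular identifiers (UMIs, counts of single captured transcripts), and Cox8c had none. The 6 rows below 100 UMIs were Cox4i2, Cox7b2, Cox8b, Cox8c, Ndufa4l2 and the pseudogene Cox5b-ps.

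The respiratory chain passes electrons from NADH and succinate through complexes I to IV to oxygen, pumps protons across the inner mitochondrial membrane, and uses their return through complex V to make ATP. Most subunits are encoded in the nucleus and imported, while a small core of complexes I, III, IV and V is encoded by mitochondrial DNA. In leukocytes the balance between this pathway and glycolysis is known to differ with cell type and activation, and neutrophils are known for few mitochondria.

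The cells were DAPI-negative (viable) CD45+ singlets sorted from livers of mice with metastases grown from the murine melanoma line B16F10. One library came from wild-type (WT) mice and 1 from Vsig4-/- mice (Vsig4 KO), which lack a complement receptor of tissue macrophages. Mice of both groups bore the same tumour in the liver, and how many were pooled, with their strain, sex and age and the design of the Vsig4 allele, is not given in the sources used here. With 1 library per genotype there was no test, and every interval below is a 95% interval for counting error, which does not cover the spread between mice.

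After filtering, 6491 WT cells (median 3034 UMIs) and 5479 Vsig4 KO cells (median 3260 UMIs) were kept. Vsig4 itself had 43 UMIs in the WT and 3 in the Vsig4 KO library. Ptprc, which encodes CD45, had a UMI in 83.3% and 81.3% of cells. The libraries shared 54 barcode sequences. Cells were assigned to types by thresholds on raw UMIs of marker genes that contain no member of the pathway, and 69.5% of WT and 73.2% of Vsig4 KO cells met exactly 1 of 18 such gates. Levels are described in the 15 gates that held 20 cells or more per library, and the libraries are compared in the 10 gates that held 50 or more. A level is the UMIs of the members out of all UMIs of a gate's cells, scaled to 1000000 (CPM).

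The stretch of 250 bases before the RefSeq transcription start (GRCm38.p6) is shown for 4 members that recur below: Atp5k and Sdhb, which had higher levels in Vsig4 KO in several gates, Uqcr11, which had lower levels, and Cox6a1, whose paralogue Cox6a2 was far higher in plasmacytoid dendritic cells than in the other gates. Capitals mark exact matches to a palindromic motif of NRF1, whose letters are the capitals in the Atp5k window, or to the core bound by ETS factors such as GABP (CCGGAAG, or CTTCCGG on the other strand). Both factors are known regulators of nuclear respiratory genes. The windows are chr5:108434400-108434649 for Atp5k, chr5:115348959-115349208 for Cox6a1 and chr10:80406822-80407071 for Uqcr11, all on the minus strand, and chr4:140961021-140961270 on the plus strand for Sdhb.
Atp5k: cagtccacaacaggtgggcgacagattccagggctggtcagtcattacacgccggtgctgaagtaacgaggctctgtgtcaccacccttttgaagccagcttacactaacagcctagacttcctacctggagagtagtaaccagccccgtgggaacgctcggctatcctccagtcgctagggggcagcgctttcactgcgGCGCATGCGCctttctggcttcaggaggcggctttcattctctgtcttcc
Cox6a1: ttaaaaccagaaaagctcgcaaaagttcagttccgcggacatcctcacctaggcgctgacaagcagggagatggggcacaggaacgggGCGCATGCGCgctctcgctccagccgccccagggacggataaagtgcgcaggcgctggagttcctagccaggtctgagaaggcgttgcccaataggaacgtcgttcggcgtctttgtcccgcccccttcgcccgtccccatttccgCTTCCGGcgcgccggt
Uqcr11: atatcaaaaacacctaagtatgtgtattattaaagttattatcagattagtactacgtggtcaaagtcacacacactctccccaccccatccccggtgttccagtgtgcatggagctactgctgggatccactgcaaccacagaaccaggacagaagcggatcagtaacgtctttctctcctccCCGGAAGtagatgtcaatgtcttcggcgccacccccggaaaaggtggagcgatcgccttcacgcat
Sdhb: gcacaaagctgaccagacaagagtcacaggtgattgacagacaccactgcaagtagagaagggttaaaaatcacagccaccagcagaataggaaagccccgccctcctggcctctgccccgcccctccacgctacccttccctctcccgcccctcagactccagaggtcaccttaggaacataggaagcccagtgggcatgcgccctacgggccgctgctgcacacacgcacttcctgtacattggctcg
Of the member symbols, 76 were matched to this table, with 81 windows among 32851. The NRF1 motif, searched on both strands, was in 5 member windows (6.17%) and in 0.782% of all windows. The ETS core was in 14 member windows (17.3%) against 6.91%, and the YY1 motif AAGATGGC in 1 (1.23%) against 1.56%. The windows with an NRF1 match were those of Atp5g2, Atp5k, Cox6a1, Ndufa11 and Ndufaf4. The ETS and YY1 motifs can overlap by the letters AAG, and only the Atp5j window held both, at separate positions. Atp5k, with an NRF1 match, and Uqcr11, with an ETS match, differed in opposite directions between the libraries (below). The other members with an NRF1 match had median ratios over gates, Vsig4 KO over WT, below 1. These were 0.928 for Atp5g2, 0.948 for Cox6a1, 0.891 for Ndufa11 and 0.972 for Ndufaf4 (measured in 2 gates). A part of the motifs in the direction was not tested. The Sdhb window held no exact match.

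Summed over all members, the highest level in both libraries was in plasmacytoid dendritic cells (pDC, the dendritic cells known for type I interferon), at 25303 CPM in WT and 22908 CPM in Vsig4 KO. The lowest was in neutrophils, at 7509 and 7522 CPM. The pDC gate thus exceeded the neutrophil gate 3.37-fold (3.10 to 3.67) in WT and 3.05-fold (2.78 to 3.35) in Vsig4 KO. The first place of pDC rested on 1 member, Cox6a2 (below). Without it pDC had 22889 and 21285 CPM, the 3rd level in WT and the 4th in Vsig4 KO, and macrophages were highest in both libraries. Macrophages, gated on C1q transcripts, followed at 24259 and 22586 CPM. Type 1 conventional dendritic cells (cDC1) stood at 23374 and 21257 CPM and classical monocytes at 22725 and 21305 CPM. Lymphocytes with a T or NK receptor formed a middle group that ran from 17540 CPM in Vsig4 KO conventional CD4 T cells to 21519 CPM in Vsig4 KO gamma-delta T cells. B cells stood well below them at 14869 and 13957 CPM, and the basophil or mast cell gate lower still at 10459 and 8414 CPM.

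The order was much the same in both libraries. Of 105 pairs of gates, 90 had the same order in WT and Vsig4 KO, and in 78 the range of the 2 libraries did not overlap. Among neighbours in the order, those ranges were apart for classical monocytes over type 2 conventional dendritic cells (cDC2), non-classical monocytes over B cells, B cells over basophil or mast cells, and the latter over neutrophils. All other neighbours overlapped. The widest shifts in place were those of 2 gates: gamma-delta T cells had the 12th level in WT and the 3rd in Vsig4 KO, and non-classical monocytes the 7th and the 12th (20492 and 16030 CPM). Those gates held 53 and 33, and 131 and 37 cells. The neutrophil gate held 41 and 26 cells with medians of 1881 and 2134 UMIs, and its hepatocyte transcripts, at 78.9 and 80.7 CPM, were the highest of the gates. Their part in the low neutrophil level was not tested.

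**Figure D1:**
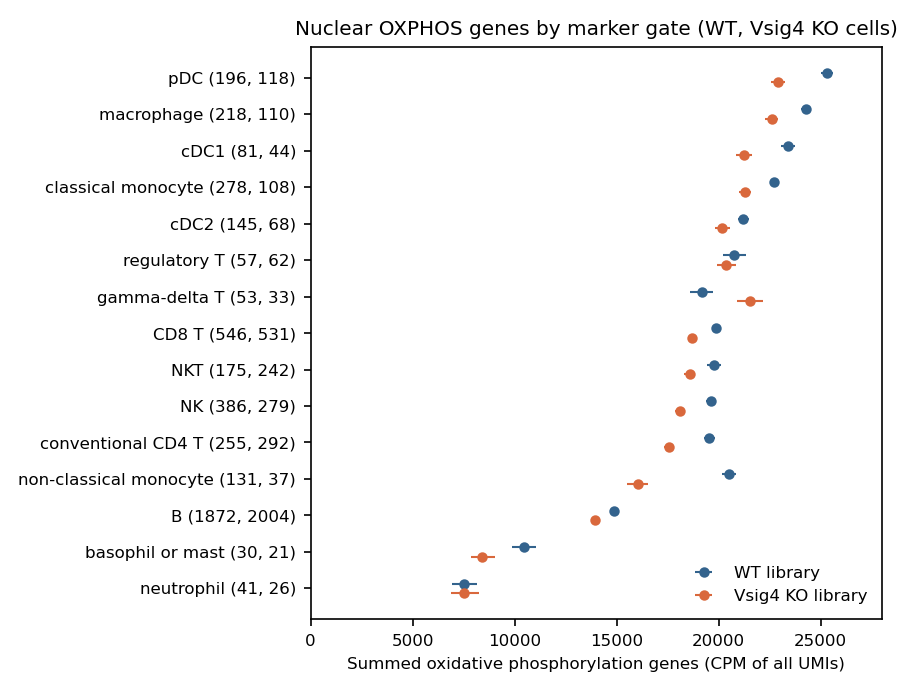
Summed CPM of the 96 members (x axis, linear from 0) in 15 marker gates (y axis, with the number of WT and Vsig4 KO cells), for the WT and the Vsig4 KO library. Points are 1 library each and bars are exact Poisson intervals. The pDC gate is highest, through Cox6a2, and the neutrophil gate lowest in both libraries, and the WT point lies to the right in most gates.

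The complexes ranged over the gates in a similar way. Complex I ran from 2065 CPM in neutrophils to 6677 CPM in pDC in WT, and from 2244 CPM in neutrophils to 6254 CPM in macrophages in Vsig4 KO. Complex V ran from 2117 CPM in neutrophils to 8047 CPM in cDC1 in WT and from 2228 to 7481 CPM (macrophages) in Vsig4 KO. Complex II, which also serves the tricarboxylic acid cycle, had its lowest level in the basophil or mast cell gate, at 94.8 and 145 CPM, rather than in neutrophils. That gate held 116077 and 96622 UMIs in all, so these levels rest on few UMIs. Whether the order of the basophil or mast cell and neutrophil gates exceeds counting error was not tested. Complex IV took 33.6% of member UMIs in WT pDC and 31.4% in Vsig4 KO pDC, with medians over the gates of 27.9% and 27.0%. Without Cox6a2 its share in pDC was 26.6% and 26.1%.

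Single members varied more than the sum. Over 89 members with at least 100 UMIs in the gates, with both libraries summed, the highest gate exceeded the lowest by a median of 5.12-fold (1 CPM added to each). The lowest gate was the neutrophil gate for 59 members and the basophil or mast cell gate for 25. Those gates held the fewest UMIs, 76042 (WT) and 61950 (Vsig4 KO) in neutrophils and 116077 and 96622 in basophil or mast cells. Counting error there widens the ranges of single members more than that of the sum, and its part was not tested. The highest was the macrophage gate for 24, cDC1 for 15, pDC for 15 and classical monocytes for 10. Neutrophils had no UMI of Ndufa11 (a membrane-arm subunit of complex I), Uqcrc2 (a core subunit of complex III), Ndufa5 or Ndufs3. Against a floor of 3 UMIs over the neutrophil gate of both libraries, Ndufa11 was at least 8.38-fold higher in pDC (182 CPM). On the same floor Uqcrc2 was at least 5.38-fold higher in cDC1 (117 CPM), Ndufa5 at least 5.18-fold in macrophages (113 CPM) and Ndufs3, a core subunit of the peripheral arm, at least 4.46-fold in pDC (97.0 CPM). Uqcrb, a small subunit of complex III, had 351 CPM in macrophages and 1 UMI in neutrophils, a ratio of 48.4 (8.67 to 1916). Atp5g1, 1 of 3 genes for the ring subunit of ATP synthase, had 396 CPM in macrophages and 2 UMIs in the basophil or mast cell gate, a ratio of 42.1 (11.6 to 348). The other members among the 12 with the widest range were Cox6a2 and Cox6b2 (below), the sparse assembly factors Ndufaf2, Ndufaf4 and Ndufaf5, and 1 of the rows listed as Atp5o.

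Across the 30 combinations of gate and library, 85 members could be set against the summed level of the others. As a description, the median Pearson r on the log2 scale was 0.837, 54 members were above 0.8 and 0 were below 0. The points share libraries and depth. The lowest values were those of Cox6a2 (0.17), Ndufaf7 (0.28), Sdhd (0.32) and Ndufs1 (0.40). Among 3205 other genes with a mean of at least 50 CPM, those most like the summed level (log2 of CPM plus 10) were Rbm8a (r = 0.951), Rbx1, Cenpx, Snrpd1, Commd4, Mrps18c, Lsm7, Psmb3, Pdap1 and Timm13 (r = 0.927).

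Paralogues of some complex IV and V subunits differed in level between cell types. Cox6a2, on chromosome 7 at 128205435 to 128206387 (minus strand, GRCm38), encodes the form of subunit VIa known from heart and skeletal muscle. It had 2414 CPM in WT pDC and 1623 CPM in Vsig4 KO pDC. No other gate exceeded 16.0 CPM, the value in WT NK cells. Relative to B cells, with 5 and 10 UMIs in all, the pDC level was 2512-fold (1075 to 7743) higher in WT and 1049-fold (569 to 2193) in Vsig4 KO. A UMI of Cox6a2 was found in 186 of 196 WT pDC (94.9%) and 96 of 118 Vsig4 KO pDC (81.4%). In B cells, which should lack the gene, the shares were 0.214% and 0.449%. Median depths were 5604 and 6922 UMIs in pDC and 2396 and 2764 in B cells. Thinned to 1000 UMIs per cell, with 1 shallower pDC left out in each library, the pDC shares were 83.1% (77.1 to 88.1, exact binomial) in WT and 67.5% (58.2 to 75.9) in Vsig4 KO. The pDC gate held 80.6% and 68.2% of all Cox6a2 UMIs, and cells that met more than 1 gate, which were left out, held 356 and 395 UMIs.

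The widespread form Cox6a1 was present in pDC as well, at 374 and 389 CPM, near its level in macrophages (438 and 427 CPM) and above that in B cells (292 and 253 CPM). The testis form Cox6b2 had its highest levels in cDC2, at 22.1 and 18.3 CPM, followed by classical monocytes at 10.9 and 11.7 CPM. B cells had 2.11 and 0.309 CPM, so that the cDC2 level was 10.5-fold (4.96 to 23.5) higher in WT and 59.0-fold (12.9 to 548) in Vsig4 KO. Cox4i2, known as the hypoxia-responsive form of subunit IV, had 9 and 10 UMIs in macrophages (6.03 and 12.2 CPM) and 0 UMIs in B cells. Against a floor of 3 UMIs per library in B cells, it was at least 10.5-fold and at least 26.4-fold higher in macrophages. Cox7a1, a muscle form, likewise had 9.38 and 9.79 CPM in macrophages.

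Cox7a2l, which encodes a protein that joins complexes III and IV into supercomplexes, went the other way. It had 129 and 104 CPM in macrophages and 253 and 246 CPM in CD8 T cells, a ratio of 1.96 (1.67 to 2.31) in WT and 2.36 (1.88 to 2.99) in Vsig4 KO. Macrophages had less of it than B cells too (0.598 and 0.596), although B cells had the lower summed level. Its relative Cox7a2 was 1.91-fold (1.73 to 2.11) and 2.09-fold (1.84 to 2.36) higher in macrophages than in B cells. The genes for the c subunit of ATP synthase, which mature to the same protein, were also unequal over the gates. Atp5g1 was 2.80-fold (2.52 to 3.12) and 2.18-fold (1.90 to 2.49) higher in macrophages than in B cells, and Atp5g2 was 1.42-fold (1.31 to 1.53) and 1.49-fold (1.35 to 1.64) higher. Ndufa4, a subunit of complex IV despite its name, had 458 and 400 CPM in NK cells, and 0 and 6 UMIs in neutrophils. Cox7b2 and Cox8b had at most 1 UMI in any gate and library, and Cox8c and Ndufa4l2 none in the 15 gates.

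**Figure D2:**
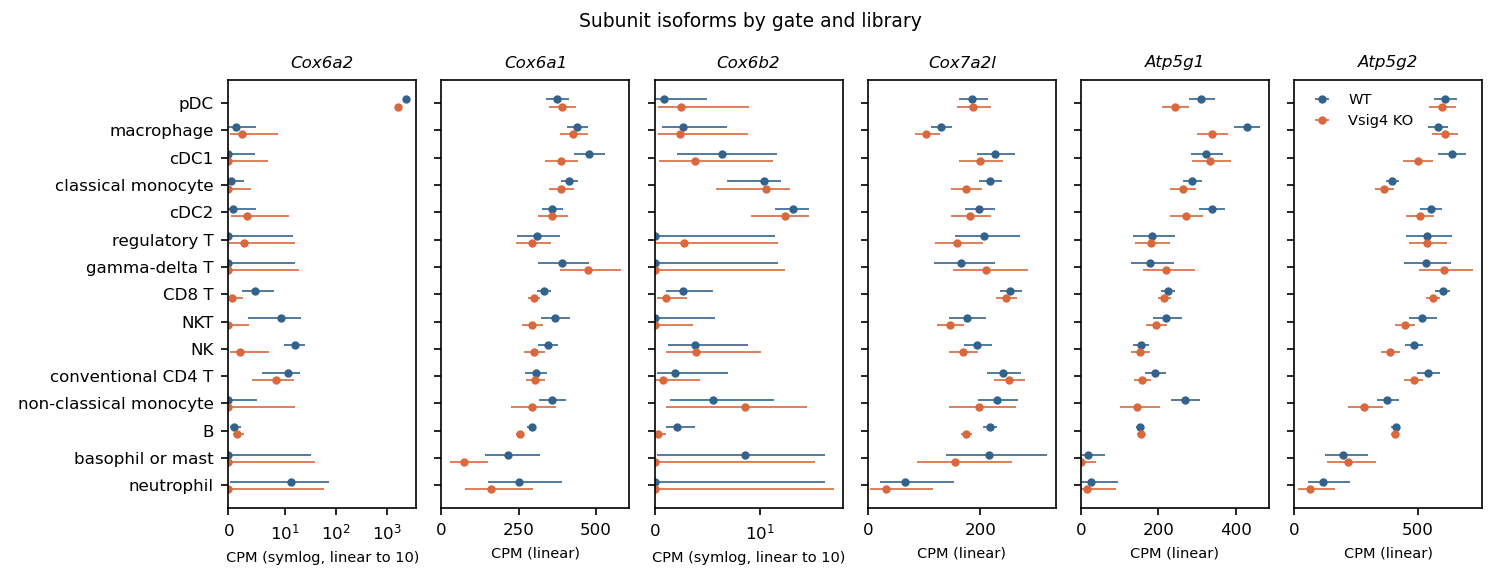
CPM of 6 subunit paralogues (panels) in the 15 gates (y axis) for the WT and the Vsig4 KO library, with exact Poisson intervals. The x axes of Cox6a2 and Cox6b2 are linear to 10 CPM and logarithmic above, the others linear. Cox6a2 stands at 2414 and 1623 CPM in pDC and at or below 16.0 CPM elsewhere, and Cox7a2l is lower in macrophages than in T cells.

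Between the libraries, the summed level was lower in Vsig4 KO than in WT in each of the 10 gates compared, by small amounts. Over all kept cells it was 19911 CPM in WT and 17851 CPM in Vsig4 KO, a ratio of 0.897 (0.893 to 0.900), but the libraries differ in their mix of cell types. Within gates the ratio ran from 0.898 (0.881 to 0.915) in conventional CD4 T cells and 0.905 (0.889 to 0.922) in pDC to 0.981 (0.947 to 1.016) in regulatory T cells, with a median of 0.938. The interval lay below 1 in 9 gates, regulatory T cells being the exception. B cells had a ratio of 0.939 (0.930 to 0.948) and CD8 T cells one of 0.940 (0.928 to 0.951). Macrophages, gated without any UMI of the Kupffer cell marker Clec4f, had 0.931 (0.915 to 0.948). Kupffer cells had their own gate, which was too small to compare, and Vsig4 UMIs are not given by gate here. In macrophages the direction turned in cells of 2000 to 6000 UMIs (76 and 43 cells), where the ratio was 1.13 (1.09 to 1.17), and in the mean over cells, where it was 1.01.

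The libraries also differed in depth. The median UMIs per cell were higher in Vsig4 KO in 9 of the 10 gates, macrophages being the exception at 6059 and 5726. The part of depth and of transcript length (below) in the lower sums was not tested further, and with 1 library each, genotype and library cannot be told apart.

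**Figure D3:**
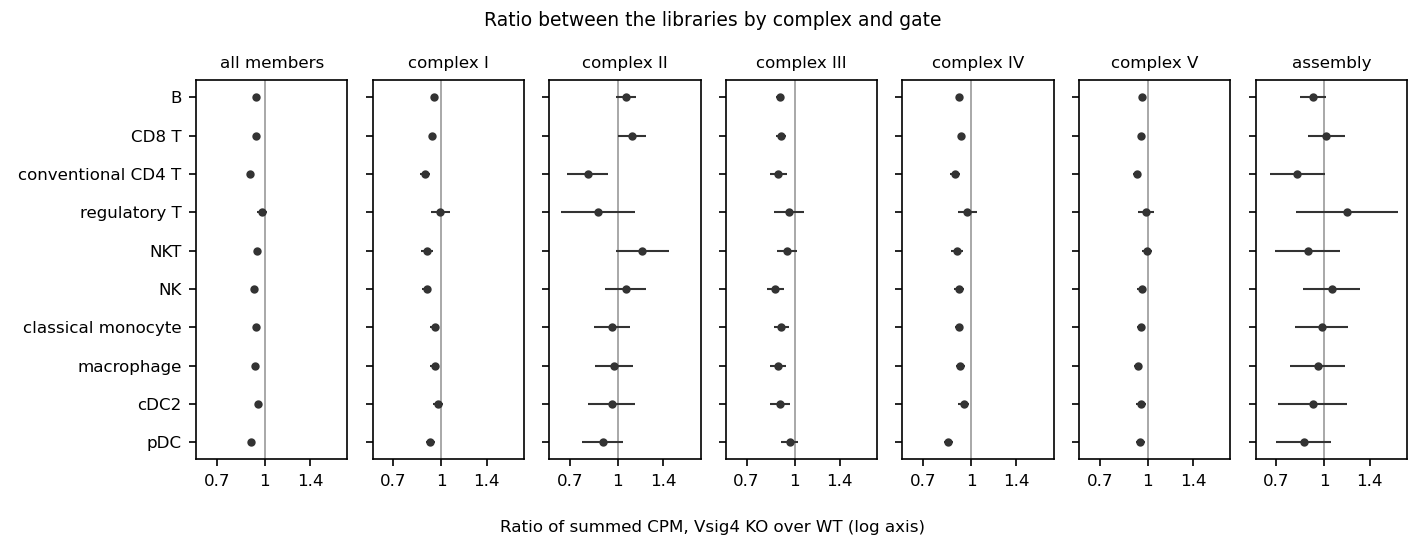
Ratio of summed CPM, Vsig4 KO over WT (x axis, logarithmic), in 10 gates (y axis) for all members, for complexes I to V and for assembly factors (panels). Points compare 1 library with 1 library, and bars are exact conditional binomial intervals. Complexes III and IV lie to the left of 1 in all 10 gates, whereas complex II and the assembly factors lie on both sides.

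By complex, the median ratio over the 10 gates was 0.943 for complex I, 0.965 for complex II, 0.901 for complex III, 0.915 for complex IV, 0.953 for complex V and 0.935 for the Ndufaf assembly factors. Complexes I, III, IV and V were below 1 in all 10 gates, and their intervals lay below 1 in 8, 7, 9 and 8 gates. Complex II was below 1 in 6 gates, from 0.799 (0.685 to 0.932) in conventional CD4 T cells to 1.199 (0.989 to 1.46) in NKT cells. Its interval lay above 1 in CD8 T cells at 1.11 (1.004 to 1.23), for 263 and 293 CPM.

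Counts of single members were set beside those of all genes with at least 100 UMIs over both libraries in the gate. Over the 10 gates this gave 746 pairs of member and gate. Of these, 115 (15.4%) were at least 1.2-fold lower in Vsig4 KO and 42 (5.63%) at least 1.2-fold higher. Over all genes, 16.3% of pairs were at least 1.2-fold lower and 17.0% at least 1.2-fold higher. The share of members that were lower was thus near the background, and what was less common among them was a higher level. The median log2 ratio of the members lay between -0.17 (conventional CD4 T cells) and -0.01 (regulatory T cells), below the median of all genes, which lay between -0.03 and 0.03, in all 10 gates. In B cells, where counts were deepest, 3 of 84 members were at least 1.2-fold lower (background 12.8%) and 2 at least 1.2-fold higher (background 12.9%). In conventional CD4 T cells, 21 of 76 were lower (background 17.7%) and 3 higher (background 16.9%). In regulatory T cells, where the fewest were measured, 6 of 46 were lower (background 23.1%) and 6 higher (background 22.2%).

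The remaining gates lay between these. CD8 T cells had 6 of 82 lower (background 11.6%) and 4 higher (background 16.7%), NKT cells 15 of 72 lower (background 22.2%) and 5 higher (background 18.6%). NK cells had 16 of 77 lower (background 17.6%) and 3 higher (background 18.7%). Classical monocytes had 10 of 79 lower (background 18.9%) and 3 higher (background 19.8%), and macrophages 12 of 78 lower (background 18.7%) and 4 higher (background 16.7%). The share of members higher was thus below the background in every one of the 10 gates, and the share lower exceeded it in 3, conventional CD4 T cells, NK cells and pDC. In cDC2, 9 of 74 were lower (background 18.7%) and 8 higher (background 18.6%), and in pDC 17 of 78 lower (background 16.8%) and 4 higher (background 18.1%). At 1.5-fold, 4 pairs were lower (0.536%, background 2.94%) and 7 higher (0.938%, background 3.29%).

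In complex I, 58 of 329 pairs (17.6%) were at least 1.2-fold lower, near the 16.3% of all genes, and 13 (3.95%) higher, against 17.0% of all genes. Ndufs5, an accessory subunit, had 119 CPM in WT NK cells and 66.2 CPM in Vsig4 KO NK cells, a ratio of 0.556 (0.411 to 0.745). Its ratio was also the lowest of the members in conventional CD4 T cells, at 110 and 74.7 CPM (0.676, 0.510 to 0.893). Ndufb7, an accessory subunit of the membrane arm, had 211 and 131 CPM in pDC (0.624, 0.492 to 0.788), and was below 1 in 9 of 10 gates. Ndufb6 had 127 and 83.7 CPM in NKT cells (0.658, 0.480 to 0.902), and Ndufa5 0.670 (0.479 to 0.938) there. Ndufc2 was at 0.675 (0.501 to 0.902) in NK cells and 0.720 (0.564 to 0.916) in conventional CD4 T cells. Of the members in CD8 T cells, Ndufa11 had the lowest ratio, at 150 and 117 CPM (0.776, 0.669 to 0.900), and Ndufa9 the highest, at 35.9 and 46.9 CPM.

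Other complex I members were higher in Vsig4 KO in single gates. Ndufs3 had 57.5 and 86.3 CPM (1.501, 1.02 to 2.20) in cDC2, the gate with 145 and 68 cells. Ndufa13, also known as GRIM-19, was lower in 9 gates, from 0.817 in pDC, but in regulatory T cells it had 261 CPM in WT and 467 CPM in Vsig4 KO, a ratio of 1.79 (1.34 to 2.41) on 67 and 168 UMIs. Ndufa10 was among the highest in B cells, at 31.3 and 39.1 CPM (1.249, 1.02 to 1.53).

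Complex II has no mitochondrially encoded subunit. Sdhb, its iron-sulfur subunit, on chromosome 4 at 140961203 to 140979193, had 62.3 and 79.5 CPM in B cells (1.28, 1.11 to 1.47) and 63.6 and 111 CPM in NKT cells (1.75, 1.21 to 2.57). It was above 1 in 6 of the 9 gates in which it was measured. The flavoprotein Sdha had 99.9 and 99.8 CPM in B cells (0.998, 0.888 to 1.12), and ran from 0.748 (0.560 to 0.991) in pDC to 1.24 (0.918 to 1.67) in macrophages. The membrane anchors were mostly lower: Sdhc was below 1 in 5 of 6 gates, and Sdhd in 5 of 8, with 74.0 and 52.4 CPM in conventional CD4 T cells (0.708, 0.503 to 0.994).

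In complex III, the acidic hinge protein Uqcrh, on chromosome 4 at 116066965 to 116075071, was lower in Vsig4 KO in all 10 gates. It had 596 and 486 CPM in B cells (0.815, 0.775 to 0.856), 784 and 660 CPM in CD8 T cells (0.841, 0.790 to 0.896) and 597 and 448 CPM in classical monocytes (0.750, 0.670 to 0.839). Uqcr11, the smallest subunit, had 186 and 116 CPM in NK cells (0.621, 0.494 to 0.777), and was lower in 9 of 10 gates. The core subunits differed from these. Uqcrc1 had 72.9 and 110 CPM in NKT cells (1.51, 1.07 to 2.17) and 82.8 and 95.6 CPM in B cells (1.15, 1.02 to 1.31), with a median ratio of 1.15 over 9 gates. Uqcrc2 had 75.4 and 94.8 CPM in CD8 T cells (1.26, 1.04 to 1.52) and 77.8 and 105 CPM in conventional CD4 T cells (1.35, 1.01 to 1.79).

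In complex IV, 19 of 121 pairs (15.7%) were at least 1.2-fold lower, near the 16.3% of all genes, and 1 (0.826%) higher, against 17.0% of all genes. Cox4i1, the main form of subunit IV, on chromosome 8 at 120668222 to 120674207, was below 1 in all 10 gates. It had 1096 and 849 CPM in classical monocytes (0.774, 0.713 to 0.840), 799 and 707 CPM in CD8 T cells (0.886, 0.833 to 0.942), and 790 and 762 CPM in NK cells, where its interval included 1 (0.965, 0.878 to 1.06). Cox5a was likewise below 1 in all 10 gates, from 0.787 (0.669 to 0.924) in pDC to 0.996 (0.916 to 1.08) in B cells. Cox7a2l had the lowest ratio of the members in B cells, at 216 and 175 CPM (0.808, 0.743 to 0.878).

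Cox6a2 in pDC had a ratio of 0.672 (0.629 to 0.719), for the 2414 and 1623 CPM above. The ratio was 0.732 with marker thresholds raised by 1 UMI. The pDC gate then held 211 and 132 cells, against 196 and 118, as cells formerly in more than 1 gate were regained. In cells of 2000 to 6000 UMIs (110 and 41 cells) the ratio was 0.921 (0.827 to 1.02). The middle 50% of single pDC held 1511 to 3365 CPM in WT and 496 to 2778 CPM in Vsig4 KO, so the libraries overlapped widely. Without Cox6a2, complex IV in pDC had a ratio of 0.912 (0.878 to 0.948) in place of 0.844 (0.817 to 0.872), and all members together 0.930 (0.912 to 0.948) in place of 0.905. Other pDC genes, chosen after values had been seen, moved unequally: Siglech, a gate gene, had a ratio of 0.817 (0.766 to 0.872), the transcription factor Tcf4 0.856 (0.804 to 0.911), Bst2 0.976 (0.930 to 1.02) and the kallikrein Klk1 2.16 (1.95 to 2.39). The part of these markers and of depth in the Cox6a2 difference was not tested.

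Complex V held the 2 members above 1 in all 10 gates and 5 of the 8 below 1 in all 10. Atp5b, the catalytic beta subunit, on chromosome 10 at 128083273 to 128090391, was above 1 in all 10 gates. It had 253 and 285 CPM in B cells (1.13, 1.05 to 1.21), 304 and 370 CPM in CD8 T cells (1.22, 1.11 to 1.34) and 416 and 509 CPM in macrophages (1.22, 1.08 to 1.39). Atp5k, a small subunit of the membrane part, on chromosome 5 at 108433244 to 108434448, was also above 1 in all 10, with 200 and 251 CPM in macrophages (1.26, 1.05 to 1.51) and 156 and 244 CPM in regulatory T cells (1.57, 1.07 to 2.34). The alpha subunit Atp5a1 and the gamma subunit Atp5c1, also of the catalytic head and its shaft, were above 1 in 8 of 10 gates each, with medians of 1.04 and 1.06. Atp5e, the epsilon subunit, was below 1 in all 10 gates, with 831 and 700 CPM in B cells (0.843, 0.808 to 0.879) and 1032 and 852 CPM in CD8 T cells (0.826, 0.781 to 0.873). Atp5j, Atp5h, Atp5j2 and Atp5l, small subunits of the stalk or membrane part, were below 1 in all 10 gates as well. Atp5md, a membrane subunit known for joining ATP synthase dimers, had 577 and 902 CPM in NKT cells (1.56, 1.38 to 1.77) but 452 and 358 CPM in pDC (0.792, 0.683 to 0.917). Atp5o was listed under 2 gene identifiers whose gene bodies overlap by 1769 bases, so its counts are uncertain.

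Of the 46 members measured in all 10 gates, 2 (4.35%) were above 1 in every gate, 8 (17.4%) below 1 in every gate and 36 mixed. Of 771 genes measured in all 10 gates, 7.0% were above 1 in every gate and 7.52% below. The gates come from the same pair of libraries and are not replicates. All 12 complex IV and all 6 complex III members in this group had a median below 1, against 9 of 11 in complex I and 11 of 17 in complex V.

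**Figure D4:**
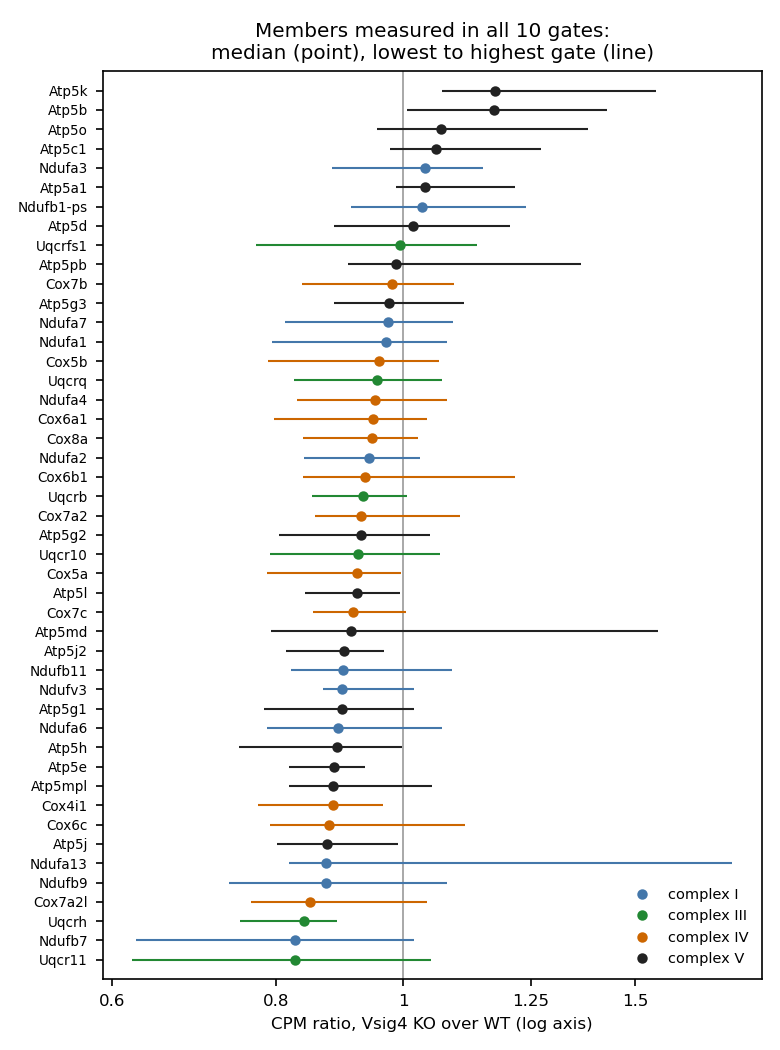
CPM ratio, Vsig4 KO over WT (x axis, logarithmic), of the 46 members measured in all 10 gates (y axis). Points are medians over gates, lines run from the lowest to the highest gate, and colours mark the complex. Atp5k and Atp5b lie to the right of 1 in every gate, and Uqcrh, Cox4i1 and Atp5e to the left. Ndufb1-ps is annotated as a non-coding gene.

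The ratio between libraries differed among classes of transcript length in some gates. Lengths, as the median over coding transcripts in GENCODE M21, were found for 95 members, with a median of 659 nt. Members under 600 nt had summed ratios of 0.885 to 0.970 and those of 600 to under 1000 nt 0.849 to 0.949, below 1 in 10 of 10 gates. Those of 1000 to under 2000 nt, among them Atp5b (1916 nt), Uqcrc2 (1179 nt) and Sdhb (1142 nt), had 0.953 to 1.23 and were below 1 in 4 gates. Members of at least 1000 nt together were above 1 in 5 of 10 gates, for example 1.05 (1.02 to 1.09) in CD8 T cells. Those of 2000 nt or more had 0.883 to 1.05 and were below 1 in 7 gates. Over single members, the Pearson r of the log2 ratio with log2 length was 0.32 in B cells, 0.48 in CD8 T cells and 0.33 in classical monocytes, and from 0.03 (macrophages) to 0.22 (NK cells) in the other gates. The members are not independent points. Among other genes, the median log2 ratio, as the median over gates, was -0.07 under 600 nt, -0.02 at 600 to under 1000 nt, 0.04 at 1000 to under 2000 nt and -0.00 at 2000 nt or more. Within the length classes, the median of members was below that of other genes in 9 of 10 gates under 600 nt, in 10 at 600 to under 1000 nt, in 7 at 1000 to under 2000 nt and in 8 at 2000 nt or more. The last class held 2 to 4 members in a gate. Atp5k, the shortest member at 321.5 nt, was above 1 in all 10 gates although short. Uqcrc1, at 533 nt by this measure, was mostly above 1. The measure is a median over all coding transcripts listed for a gene and can differ much from the length of its main transcript. The class of single members, such as Uqcrc1, Ndufs1 (651 nt) and Ndufb2 (2413 nt), is therefore uncertain. Whether length has a part in the difference between libraries was not tested.

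**Figure D5:**
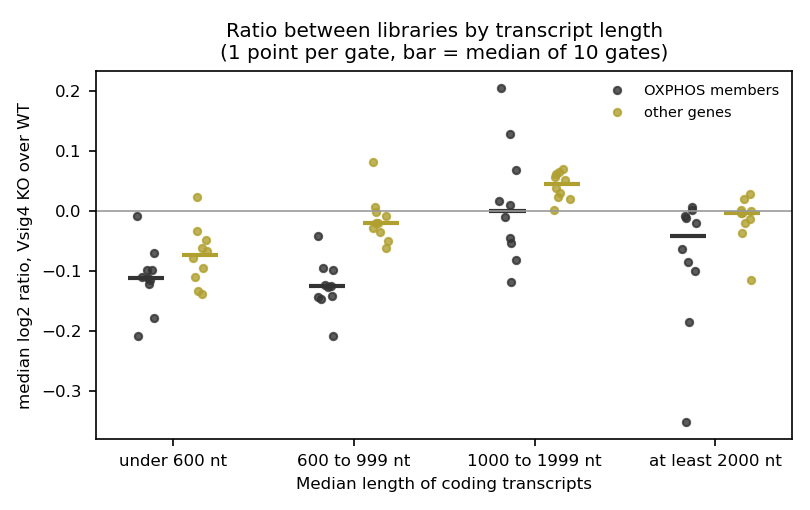
Median log2 ratio, Vsig4 KO over WT (y axis), of members and of all other genes in 4 classes of transcript length (x axis). Each point is 1 of 10 gates, jittered sideways, and bars are medians over gates. Both groups lie lower below 600 nt than at 1000 to under 2000 nt, and the members lie below the other genes at 600 to under 1000 nt in all 10 gates.

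Other genes of the pathway were read from lists in the same gates. The 13 mitochondrially encoded subunits summed to 0.741 (pDC) to 0.904 (classical monocytes) of their WT level, below 1 in all 10 gates, and 64 of 126 pairs were at least 1.2-fold lower and 15 higher (backgrounds as above, 16.3% and 17.0%). mt-Atp6 ran from 0.579 to 0.783 and mt-Co3 from 0.602 to 0.842. mt-Atp8, which overlaps mt-Atp6 on the same transcript, went the opposite way, from 1.67 in CD8 T cells to 2.34 in macrophages. Reads of these 2 genes can be split between them by counting, so their ratios are uncertain. Above 1 in most gates were also mt-Nd4l (7 of 10, median 1.12), mt-Nd6 (5 of 7, median 1.15) and mt-Nd3 (5 of 9, median 1.02). The 43 other assembly factors and inhibitors summed to 0.853 to 0.938, with 44 of 145 pairs lower and 14 higher. The 78 mitochondrial ribosomal protein genes summed to 0.860 to 1.04, with 89 of 363 pairs lower and 28 higher.

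Lists of neighbouring pathways were summed in the same way. Over all genes, 16.3% of pairs were at least 1.2-fold lower and 17.0% at least 1.2-fold higher, and the counts of pairs here are to be set beside those shares. The 16 genes of the tricarboxylic acid cycle summed to 0.961 to 1.15 and were above 1 in 8 gates, with 15 of 89 pairs higher and 11 lower. The 11 electron carriers and exchangers, among them cytochrome c (Cycs) and the ADP/ATP exchanger Slc25a5, summed to 0.959 to 1.105, with 12 of 83 pairs higher and 8 lower. The 13 regulators of the pathway, such as Nrf1 and Gabpa, summed to 0.916 to 1.28, with 6 of 32 pairs higher and 2 lower. Nrf1 itself was below 1 in all 5 gates in which it was measured (0.784 to 0.946), and Gabpa in 1 of 2. Yy1 was above 1 in 6 of 9. In the cycle, the carriers and the regulators the share of higher pairs was thus near that of all genes. The glycolysis genes summed to above 1 in all 10 gates, from 1.01 (0.962 to 1.06) in NK cells to 1.36 (1.28 to 1.45) in regulatory T cells. Of their pairs, 52 of 123 were at least 1.2-fold higher, above the share of all genes, and 12 lower. Pkm (pyruvate kinase) ran from 1.14 in pDC to 1.90 in regulatory T cells, and Ldha (lactate dehydrogenase), Eno1 and Gpi1 were also above 1 in all 10 gates. Other genes of the list went the other way. Slc2a3 was below 1 in all 5 gates in which it was measured (0.504 to 0.820). Hk1 was below 1 in 5 of 6 gates, Hk2 in 2 of 2 and Slc2a1 in 3 of 6.

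Markers of other cells and states were read in the same gates. The 95 cytosolic ribosomal protein genes summed to 0.845 to 1.04 and were below 1 in 9 gates. Of their pairs, 90 of 808 were at least 1.2-fold lower and 31 higher, both smaller shares than the 16.3% and 17.0% of all genes. The 4 stress genes Fos, Jun, Hspa1a and Hspa1b, known to respond to tissue dissociation, summed to 0.394 (pDC) to 0.948 (macrophages). Their sum was below 1 in all 10 gates. Of their 40 pairs, 24 were at least 1.2-fold lower and 4 higher, beside 16.3% and 17.0% of all genes. The higher pairs were 1 each in CD8 T cells, conventional CD4 T cells, regulatory T cells and macrophages. The part of the stress genes in the lower pathway levels was not tested. Hepatocyte markers (7 genes) had at most 80.7 CPM in any gate and melanoma markers (6 genes) at most 31.8 CPM. Erythroid markers (5 genes) reached 2535 CPM, or 0.253% of UMIs, in WT NK cells against 0.987 CPM in Vsig4 KO NK cells, and 223 against 4.95 CPM in B cells. Platelet markers (Pf4 and Ppbp) reached 359 and 464 CPM in macrophages.

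Cycling CD8 T cells carried more of the pathway than other CD8 T cells. Cells with at least 2 UMIs of Mki67, Top2a, Birc5 and Cdk1 together numbered 35 and 31 among CD8 T cells, the 1 gate in which both libraries had at least 20. In WT the summed level was 28314 CPM in cycling and 18380 CPM in other CD8 T cells, a ratio of 1.54 (1.51 to 1.57). In Vsig4 KO it was 27034 and 17518 CPM, also 1.54 (1.51 to 1.58). The ratio was largest for complex IV in WT (1.66, 1.59 to 1.72) and smallest for complex III in both libraries (1.24 and 1.33). Cycling cells were deeper, with medians of 10200 and 9010 UMIs against 4001 and 4546. Among cells of at least 6000 UMIs, with 25 cycling cells in each library, the ratios were 1.59 and 1.503. Cycling cells were still deeper there, with medians of 12765 and 10462 UMIs against 6916 and 7215, so the cut did not match depth.

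Within a gate, single cells overlapped widely. Thinned to 1000 UMIs, the median cell held 26 member UMIs in WT pDC and 23 in Vsig4 KO pDC, 25 in macrophages of both libraries, 14 and 13 in B cells and 6.5 and 8 in neutrophils. The 10th to 90th percentiles were 9 to 21 UMIs in WT B cells and 14 to 39 in WT macrophages. The unthinned median shares were 2.60% and 2.33% in pDC, 2.52% and 2.35% in macrophages and 1.42% and 1.35% in B cells. In all, 159 gated cells with under 1000 UMIs were left out. The variance between cells was 1.38 to 3.56 times the mean over the gates and libraries, where counting alone would give about 1.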

How the data were processed

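Single-cell gene expression libraries were made with the 10x Genomics 5′ v1.1 chemistry, per the labels' protocols, and Cell Ranger 7.1.0 and the mm10 build are named in the submitters' processing notes. The deposited matrices hold whole-number UMI counts per gene and barcode (6929 WT barcodes with 28537154 UMIs, 5799 Vsig4 KO barcodes with 25119175). A barcode was kept if it had 200 genes or more, 500 UMIs or more and no more than 10% of UMIs from mitochondrial genes (6872 and 5746). Scrublet in scanpy 1.11.5 marked 0 and 1 cell by its own threshold and so did not work here. In its place, cells with the top scores were left out, 0.8% for every 1000 deposited barcodes (381 and 267 cells). Gates used raw UMIs of markers, and cells in several gates (90 and 67) or none (1890 and 1403) were left out. Counts were summed per gate and library. Intervals were exact Poisson (CPM), exact conditional binomial (ratios) and Clopper-Pearson (shares), computed with scipy 1.17.1 and checked on simulated data. Log2 ratios carried 0.5 UMI. Coordinates and lengths came from GENCODE M21 (GRCm38, the mm10 assembly), to which all 96 members matched by identifier.

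Genes named by rule were the paralogue groups and Sdha to Sdhd, the 12 members with the largest range over gates, members at least 1.5-fold apart in a gate, the 3 highest and 3 lowest in the 5 largest gates, and the 10 genes most like the summed level. Genes named because they lay on 1 side in every gate, and the core subunits set beside them, were chosen after their values were seen. The members, gates and lists were chosen with earlier results of these data known. Alternatives covered doublets, filters, gates, scaling, weighting, members and count minimums. Those on depth, cycling cells and transcript length were added after the data had been seen. The values of 1 member that met the naming rule are not reported here.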

Additional observations from a re-analysis of the deposited data

Results flagged for a closer look

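For 3 members the ratio, Vsig4 KO over WT, had an interval wholly above 1 in one gate and wholly below 1 in another, so that the libraries differed in opposite directions. The difference between gates was not tested, since there was 1 library of each genotype, and with many pairs of member and gate some such cases arise from counting error. Ndufa13 was at 1.79 (1.34 to 2.41) in regulatory T cells and 0.817 (0.696 to 0.957) in pDC. Atp5md was at 1.56 (1.38 to 1.77) in NKT cells and 0.792 (0.683 to 0.917) in pDC. Ndufb5, an accessory subunit of complex I, was at 1.23 (1.003 to 1.51) in macrophages and 0.885 (0.797 to 0.983) in B cells.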

How the results depend on the processing

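The main limits are 1 library per genotype, differing depth, and gates that leave out 29.1% of WT and 25.6% of Vsig4 KO cells as meeting none. The summed ratio was below 1 in all 10 gates with at most 5% mitochondrial UMIs, at least 500 genes per cell, no assembly factors, no cycling cells, members under 600 nt, or other scalings. It was below 1 in 9 with all doublet scores kept (regulatory T cells 1.004), marker thresholds raised by 1 UMI, or means over cells. In cells of 2000 to 6000 UMIs it was also below 1 in 9, and in 5 with members of at least 1000 nt. No paired analysis was possible because each genotype had 1 library. Settings added after the data had been seen were those on depth, cycling and length.

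With every marker threshold raised by 1 UMI the ratio was 0.868 in conventional CD4 T cells, reversed at 1.06 in regulatory T cells, 0.907 in NKT cells and 0.900 in macrophages, and that of Cox6a2 in pDC 0.732. Scaled without mitochondrial, ribosomal, immunoglobulin and haemoglobin genes, it was 0.927 in B cells, 0.907 in CD8 T cells, 0.888 in NK cells, 0.907 in classical monocytes, 0.914 in macrophages, 0.923 in cDC2 and 0.888 in pDC, with 0.923 for the median of complex V. Divided by the median ratio of all genes it was 0.922 in CD8 T cells. As a mean over cells it was 0.925 in conventional CD4 T cells, 0.935 in regulatory T cells, 0.898 in NKT cells and, reversed, 1.01 in macrophages. Without its leading member, Cox6a2, pDC had 0.930. In cells of 2000 to 6000 UMIs it was 0.949 in B cells, 0.919 in CD8 T cells, 0.916 in conventional CD4 T cells, 0.944 in regulatory T cells, 0.947 in NK cells, 0.869 in cDC2 (42 and 15 cells) and, reversed, 1.13 in macrophages, with 0.907 for the median of complex I and 0.921 for Cox6a2 in pDC. Without cycling cells it was 0.953 in CD8 T cells, 0.928 in conventional CD4 T cells, 0.896 in regulatory T cells and 0.919 in NKT cells. With members under 600 nt it was 0.906 in B cells, 0.902 in CD8 T cells, 0.913 in classical monocytes and 0.928 in pDC. With members of at least 1000 nt it was reversed to above 1 in regulatory T cells (1.15), whose main interval included 1, B cells (1.01), CD8 T cells (1.05), classical monocytes (1.03) and cDC2 (1.0017), and was 0.955 in conventional CD4 T cells, 0.982 in NKT cells, 0.963 in NK cells, 0.961 in macrophages and 0.990 in pDC. The cause of these shifts was not tested.

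The pDC level over that of neutrophils was 3.05 in WT with all doublet scores kept. In Vsig4 KO it was 3.37 with marker thresholds raised by 1 UMI. With the other scaling it was 4.06 and 3.62, and in cells of 2000 to 6000 UMIs 4.13 and 3.47. Cycling over other CD8 T cells was 1.59 and 1.503 among cells of at least 6000 UMIs. With a minimum of 20 UMIs, 66 of 851 pairs (7.76%) were at least 1.2-fold higher and 152 (17.9%) lower, against 22.9% and 24.7% of all genes. With 500 UMIs it was 10 of 393 (2.54%) and 40 (10.2%), against 13.0% and 10.0%.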

Other observations

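The 3 gates with fewer than 20 cells in a library were left out above, and their values carry little weight. The Kupffer cell gate, for macrophages resident in the sinusoids, held 16 and 5 cells. Its summed level was 36763 CPM (34668 to 38952) in the WT library, and the Vsig4 KO value was 21889 CPM (19754 to 24192). Median depths were 1721 and 3144 UMIs. Type 1 innate lymphoid cells numbered 18 in each library, with 24107 CPM (23049 to 25201) and 18407 CPM (17411 to 19445). Mature dendritic cells numbered 13 and 11, with 16132 CPM (15301 to 16996) and 17637 CPM (16713 to 18598). Cells in no gate had 20462 and 18926 CPM at medians of 2465 and 2713 UMIs.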
